A study of Mus musculus with 7 samples.

Results

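The genes described here encode 36 plasma proteins of the complement system and of blood clotting that the liver makes and secretes. They were chosen by symbol: 16 complement genes and 20 genes of coagulation, fibrinolysis and related plasma proteins, each with 1 row among the 37468 rows of every library. All 36 had values in all 7 libraries, none was listed at 0, and all 36 passed the filter on low values.

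Complement is a chain of plasma proteases that marks microbes and altered cells. Pattern-recognising proteins (mannose-binding lectins, C1q) activate their proteases, these assemble convertases that cut C3 and then C5, and C5b with C6, C7, C8 and C9 builds a pore in the target membrane. Clotting runs through a similar chain: vitamin K dependent proteases and their cofactors generate thrombin, which turns fibrinogen into fibrin, and plasmin later dissolves the fibrin. Hepatocytes are the main source of most of these proteins, and several of them belong to the acute phase proteins whose output changes in inflammation.

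Liver RNA of C57BL/6 mice was sequenced in 7 libraries. The WT group held 2 libraries from wild-type animals and the SunTag group 2 from animals that carry SunTag-dCas9. Livers of the same SunTag-dCas9 genotype gave the libraries of the Myod1 experiment: Myod1_active, with that gene activated (1 library), and its control group, Myod1_control (2 libraries). dCas9 binds DNA at the site its guide RNA names without cutting it, and SunTag is a peptide array that gathers effector proteins there. Not given in the sources used here were the promoter that drives the transgene, the age and number of the mice, the means of activating Myod1 and the treatment of the controls. Levels are FPKM, fragments scaled to transcript length and library size, so they can be compared between genes. Read depth was unknown. Myod1 was at 3.52 FPKM in the Myod1_active library and listed at 0 in the other 6. The 3 libraries of the Myod1 experiment differed from the other 4 in sex-linked genes: Xist was at 56.9 to 82.2 FPKM in WT and SunTag and at 0.00420 to 0.324 in the Myod1 experiment, and the Y-linked Ddx3y was at or below 0.0765 in the former and at 6.97 to 9.23 in the latter. SunTag replicate 1 stood slightly apart from the WT and SunTag libraries, with a correlation across genes of 0.943 to 0.948 against 0.955 to 0.958 among the other 3.

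The 36 genes together held 3.72% to 4.22% of the FPKM of all genes spanning at least 300 bp, with 0.956% to 1.38% in the complement genes and 2.48% to 3.13% in the coagulation genes. Between 24 and 29 of them ranked among the 1000 most abundant genes of a library. Most were steady: the ratio of the highest to the lowest library was under 2 for 25 of the 36 (69.4%). In complement that held for 9 of 16 (56.25%) and in coagulation for 16 of 20 (80%). It held for 46.8% of the 11525 genes at an FPKM of at least 1 in every library, which were not matched for abundance. The median ratio was 1.85 for complement, 1.46 for coagulation and 2.07 for those 11525 genes. C6 had the widest ratio, 35.5, followed by Mbl2 at 4.78, C8b at 3.62 and C8a at 3.05. Prothrombin (F2, 1.23), protein C (Proc, 1.27), vitronectin (Vtn, 1.28) and factor XII (F12, 1.32) had the narrowest.

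**Figure D1:**
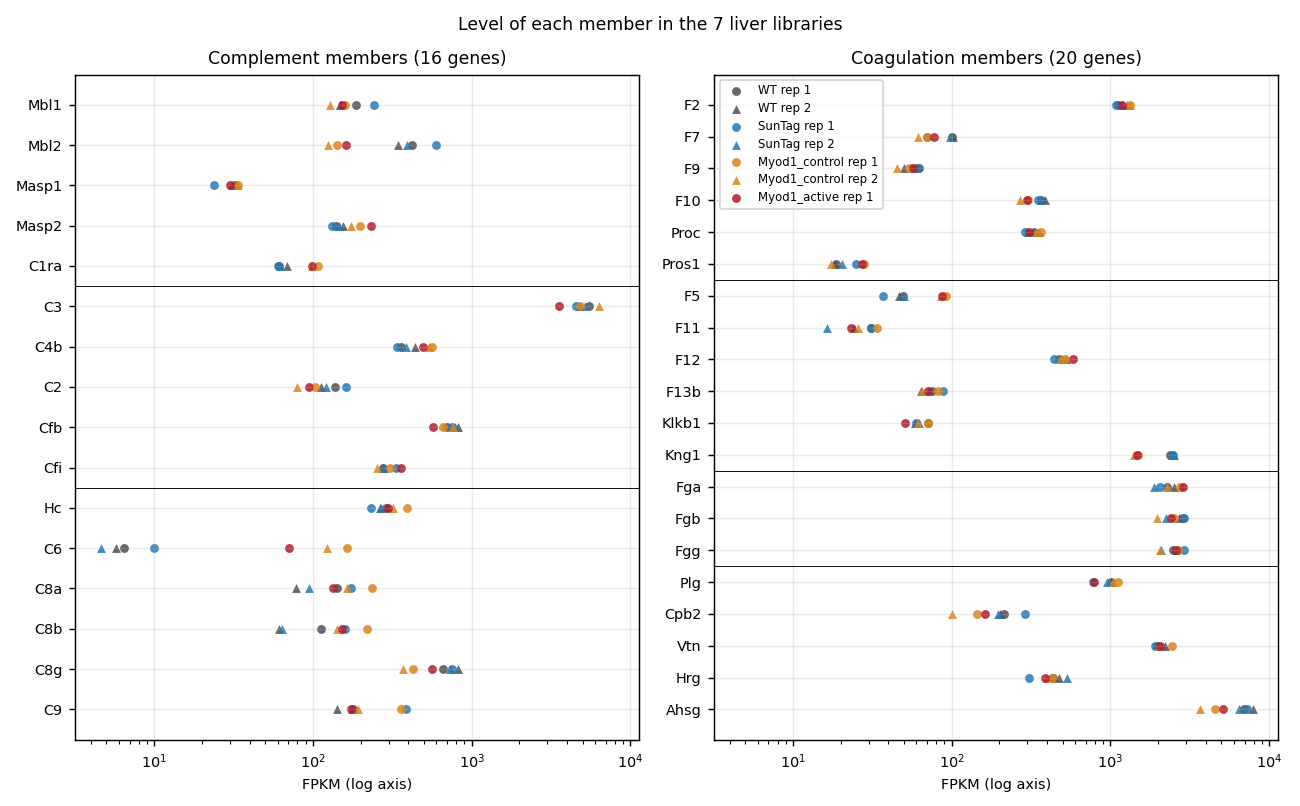
FPKM (log axis) of the 16 complement genes (left) and the 20 coagulation genes (right) in each of the 7 libraries, with 1 point per library and lines between the groups of roles. C6 spreads from 4.63 FPKM in SunTag replicate 2 to 164 in Myod1_control replicate 1, while F2 stays between 1090.2 and 1336.

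The comparison of SunTag with WT asked what the SunTag-dCas9 genotype changes in liver. None of the 36 genes passed the test (0 of 36, against 0.127% of all 15744 genes tested), and at an unadjusted p under 0.05 the count was also 0, against 1.95% of all genes. Their log2 differences ran from -0.30 for F7 to 0.69 for C9. Here and below a log2 difference is taken on log2(FPKM + 1) and given after subtracting that of the median gene, while its SE and adjusted p come from limma before that shift. The groups did not overlap for 8 of the 36 (22.2%, against 25.8% of all genes). The median difference was 0.07 for complement and -0.10 for coagulation, inside the quartiles of all genes, -0.13 to 0.14.

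Between Myod1_active and Myod1_control, which asked what follows Myod1 activation, none of the 36 genes passed either (0 of 36, against 0.254% of all genes). At an unadjusted p under 0.05 the count was again 0, against 19.5% of all genes. The median gene was higher by 0.25 in Myod1_active, and 28 of the 36 members lay below it, 12 of 16 in complement and 16 of 20 in coagulation. Before that shift was taken off, 19 of the 36 were lower and 17 higher. The shift itself depended on scaling: it was 0.015 after median-ratio scaling and 0 after quantile normalization. The median difference was -0.41 for complement and -0.20 for coagulation, against quartiles of -0.27 to 0.27 for all genes. All genes were not matched for abundance with the members. With quantile normalization the coagulation median moved by more than the spread of replicates, while the complement median did so in none of 18 alternatives. The single Myod1_active library lay outside both control values for 25 of the 36 members (69.4%, against 78.0% of all genes), above them for 10 (61.4% of all genes) and below them for 15 (16.6%). Only C6 differed by 2-fold or more, against 7.13% of all genes. With 1 library, the activated arm had no replicate check and was assumed to vary like the other groups.

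Myod1_control and SunTag were compared as background. Their libraries differ in the experiment and, by the Xist and Ddx3y values above, in the sex of the mice, which cannot be told apart. Of the 36 members 6 passed (16.7%, against 24.3% of all genes), 4 of 16 in complement and 2 of 20 in coagulation. At an unadjusted p under 0.05 the count was 12 of 36, against 41.7% of all genes. C6, C1ra and F5 were higher in Myod1_control, where 7.30% of all genes were called higher, and Mbl2, C8g and Kng1 were lower, where 17.0% were. Of all 15744 genes, 1149 were called higher and 2683 lower (29.98% of calls higher). That split was 1589 and 2015 after median-ratio scaling (44.1% higher) and 1757 and 1764 after quantile normalization (49.9% higher). The share not overlapping was 55.6% of members (20 of 36) against 66.6% of all genes. The median difference was 0.38 for complement and 0.14 for coagulation, with quartiles of all genes at -0.50 and 0.43.

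Whether these 6 genes passed depended on the libraries in the fit. Each difference kept its sign in all 19 alternatives, 18 planned and 1 chosen after seeing the data. WT is not part of this comparison, and its libraries enter the fit through the shared estimate of the spread. Without WT replicate 1 the differences stayed at 4.32 for C6 and -1.71 for Mbl2. None of the 6 passed without WT replicate 1 (limma adjusted p from 0.0683 to 0.0799), WT replicate 2 (0.0690 to 0.0801), Myod1_control replicate 1 (0.0757 to 0.106) or Myod1_control replicate 2 (0.0707 to 0.113). Without SunTag replicate 1, C6 and Mbl2 passed (0.0167 and 0.0489) and the other 4 did not (0.0536 to 0.0839). Without SunTag replicate 2, C8g did not pass (0.0523). In a fit of these 2 groups alone only C6 passed (0.0408), with the others at 0.0525 to 0.0787. The count over all genes moved with the same libraries, from 3832 to 58 without WT replicate 2 and to 59 without WT replicate 1, to 127 and 126 without Myod1_control replicates 1 and 2, and to 918 without SunTag replicate 1.

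**Figure D2:**
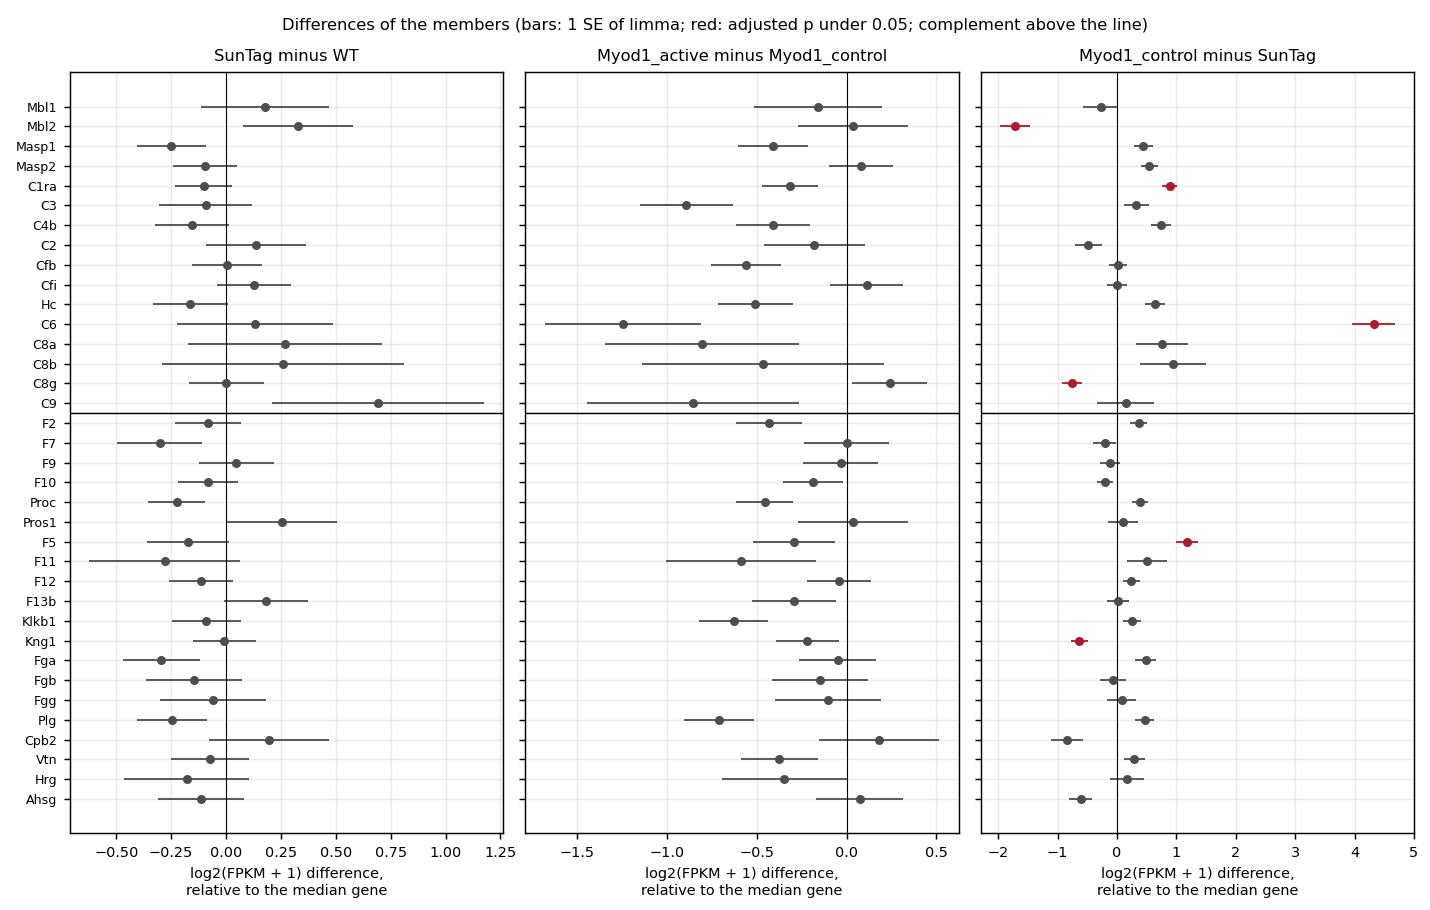
Difference of each gene on the log2(FPKM + 1) scale relative to the median gene (x axis, scaled separately in each panel) in the 3 comparisons, with bars of 1 SE of limma and genes with an adjusted p under 0.05 in red. Red points appear in the comparison of Myod1_control with SunTag alone: C6, C1ra and F5 to the right and Mbl2, C8g and Kng1 to the left.

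Among the proteins that start complement, the 2 mannose-binding lectins parted. Mbl2, a lectin that binds microbial sugars, was at 419 and 344 FPKM in WT, 593 and 391 in SunTag, 142 and 124 in Myod1_control and 163 in Myod1_active. Every library of the Myod1 experiment lay below every other library. Mbl2 fell by 1.71 on the log2 scale from SunTag to Myod1_control (SE 0.2499, limma adjusted p = 0.0193), a mean of 133 ± 12.95 against 492 ± 143 FPKM (SD, n = 2 each). Its relative Mbl1 was at 128 to 243 FPKM over the 7 libraries, and its difference of -0.28 did not pass (adjusted p = 0.330). The ratio of Mbl2 to Mbl1 within a library was 2.24 and 2.31 in WT, 2.44 and 2.62 in SunTag, 0.892 and 0.973 in Myod1_control and 1.07 in Myod1_active. The WT and SunTag ratios therefore did not overlap those of the Myod1 experiment.

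C1ra, a protease of the C1 complex, was at 61.3 and 68.5 FPKM in WT, 60.1 and 61.7 in SunTag, 107 and 99.2 in Myod1_control and 98.8 in Myod1_active. The 3 libraries of the Myod1 experiment lay above the other 4, and C1ra rose by 0.89 from SunTag to Myod1_control (SE 0.128, limma adjusted p = 0.0245). C1ra and its copy C1rb overlap by 10669 bp in the deposited coordinates, so their reads cannot be fully told apart: C1rb was at 23.2 and 26.8 FPKM in SunTag and at 52.9 and 46.2 in Myod1_control. Of the lectin-associated proteases, Masp1 was at 32.5 and 31.7 FPKM in WT, 23.8 and 30.9 in SunTag, 33.7 and 33.9 in Myod1_control and 30.2 in Myod1_active. Its lowest value was in SunTag replicate 1, and the other 6 values were close together. Masp2, which cuts C4 and C2, ran from 131 FPKM in SunTag replicate 1 to 233 in Myod1_active. Its difference between Myod1_control and SunTag was 0.54 (adjusted p = 0.102). That difference passed in only 1 of the 19 alternatives, quantile normalization (adjusted p = 0.0310).

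C3, on which all complement routes meet, was the most abundant complement gene in every library. Its values were 5453 and 4846 FPKM in WT, 4554 and 5208 in SunTag, 4836 and 6383 in Myod1_control and 3561 in Myod1_active. The Myod1_active library was the lowest of the 7, at 0.635 of the control mean, while the other groups overlapped. The difference of -0.89 (SE 0.259) did not pass (limma adjusted p = 0.267). It was -0.64 before the shift of the median gene was taken off. Over 18 alternatives it kept its sign and ran from -1.10 to -0.17. Cfb, the protease of the alternative C3 convertase, was at 703 and 821 FPKM in WT, 751 and 787 in SunTag, 661 and 758 in Myod1_control and 571 in Myod1_active. It was likewise lowest in Myod1_active, with a difference of -0.56 (SE 0.195, adjusted p = 0.411).

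C4b, which forms the classical convertase with C2, was at 358 and 442 FPKM in WT, 338 and 385 in SunTag, 559 and 542 in Myod1_control and 494 in Myod1_active. The libraries of the Myod1 experiment were the 3 highest, and the difference between Myod1_control and SunTag of 0.74 missed the threshold (SE 0.167, limma adjusted p = 0.0568). It passed in 5 of the 19 alternatives, with an adjusted p of 0.0300 at the lowest. C4b has a close copy, C4a (269 to 360 FPKM), and reads can be split between them. C2, its partner protease, was at 139 and 113 FPKM in WT, 161 and 121 in SunTag, 103 and 79.3 in Myod1_control and 95.0 in Myod1_active. All 3 values of the Myod1 experiment lay below the other 4 (difference -0.48, SE 0.229, adjusted p = 0.108). The C2 difference passed in only 1 of the 19 alternatives, with the replicate number as a block (adjusted p = 0.0465). C2 and Cfb overlap by 6107 bp, so their values are uncertain in the same way. A further entry, CT025759.1, overlaps each of them by 5540 bp and ran from 6.15e-40 to 156 FPKM over the 7 libraries. Cfi, which inactivates C3b and C4b, ran from 253 to 359 FPKM, highest in Myod1_active.

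The terminal genes held the widest difference of the whole set, that of C6. C6, a pore component at chr15:4677175-4765456 of mm9 (ENSMUSG00000022181), was at 6.49 and 5.76 FPKM in WT, 10.02 and 4.63 in SunTag, 164 and 123 in Myod1_control and 71.0 in Myod1_active. It was the least abundant of the 36 genes in all WT and SunTag libraries, and its lowest value in the Myod1 experiment was several times its highest value elsewhere. C6 rose by 4.32 from SunTag to Myod1_control (SE 0.355, limma adjusted p = 0.0137), with a mean of 144 ± 29.0 FPKM against 7.32 ± 3.81 (SD, n = 2 each), a ratio of 19.6. In Myod1_active C6 was at 0.494 of the control mean, and that difference of -1.25 (SE 0.435) did not pass (adjusted p = 0.285). Between SunTag and WT it was 0.13 (SE 0.355, adjusted p = 1).

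**Figure D3:**
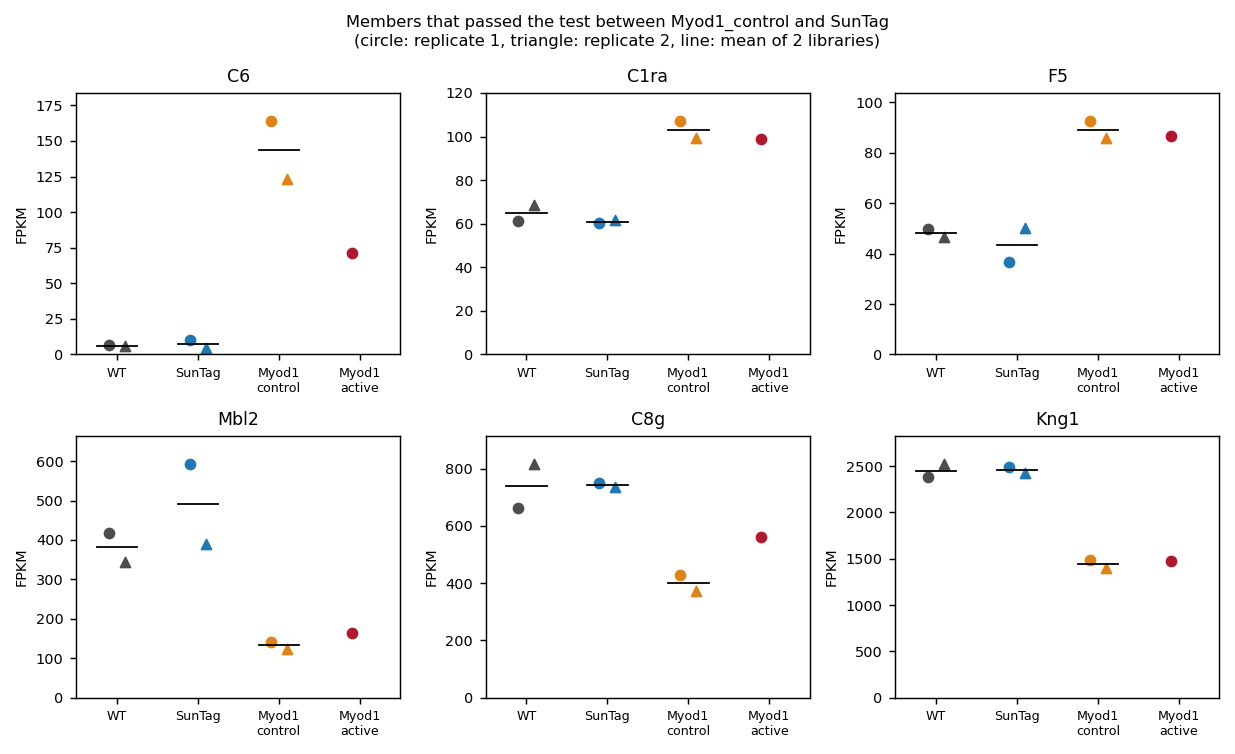
FPKM (linear axes from 0) of the 6 genes that passed the test between Myod1_control and SunTag, with 1 point per library and a line at the mean of each group of 2. The upper genes (C6, C1ra, F5) are higher and the lower genes (Mbl2, C8g, Kng1) lower in all 3 libraries of the Myod1 experiment than in the 4 others.

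The 250 bases before the C6 start site are shown because C6 had the largest difference of the set. They lie at chr15:4726960-4727209 on the plus strand of GRCm38, from RefSeq. None of the 6 motifs searched here, which are spelled out with the fibrinogen promoters, matched in this window, so it holds no capitals.
C6: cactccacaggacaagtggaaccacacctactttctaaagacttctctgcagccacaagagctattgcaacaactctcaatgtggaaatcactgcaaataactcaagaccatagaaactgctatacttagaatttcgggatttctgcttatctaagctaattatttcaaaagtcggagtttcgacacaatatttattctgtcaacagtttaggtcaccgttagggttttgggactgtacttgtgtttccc

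C8 is built of 3 chains, and these did not move as 1 unit. C8a was at 142 and 77.9 FPKM in WT, 174 and 93.9 in SunTag, 237 and 165 in Myod1_control and 134 in Myod1_active. C8b, whose gene lies 11130 bp from C8a on chromosome 4, was at 113 and 60.8 in WT, 159 and 63.5 in SunTag, 219.9 and 142 in Myod1_control and 152 in Myod1_active. Both were higher in replicate 1 of each group of 2. SunTag overlapped with WT and with the controls for both genes, and C8a was lower in Myod1_active than in both controls. Their ratio, C8a over C8b, stayed between 0.881 and 1.48.

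C8g, the third C8 chain and a small lipocalin-like protein encoded on chromosome 2, was at 662 and 816 FPKM in WT, 750.0 and 736 in SunTag, 427 and 372 in Myod1_control and 561 in Myod1_active. It fell by 0.76 on the log2 scale from SunTag to Myod1_control (SE 0.170, limma adjusted p = 0.0278), and all 3 values of the Myod1 experiment lay below the other 4. The adjusted p was 0.0624 after quantile normalization. C8a and C8b were 0.76 and 0.94 higher in the same comparison without passing (adjusted p = 0.333 and 0.316). C8g over C8a was 4.30 to 10.5 in WT and SunTag, 1.80 and 2.26 in Myod1_control and 4.18 in Myod1_active. The C8g and Fbxw5 genes overlap by 970 bp.

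C9, which polymerises into the pore wall, was at 180.0 and 141 FPKM in WT, 383 and 178 in SunTag, 360.1 and 193 in Myod1_control and 173 in Myod1_active. The SunTag replicates and the control replicates each differed by a larger factor than the means of any groups compared, and no difference passed. Between SunTag and WT C9 had the largest difference of the set, 0.69 (SE 0.481, limma adjusted p = 1), and its value in SunTag replicate 2 lay between the 2 WT values. Hc, the gene of C5, ran from 231 to 390.3 FPKM and was highest in the 2 controls (difference from SunTag 0.63, adjusted p = 0.0917). That difference passed in 2 of the 19 alternatives, with the lowest adjusted p, 0.0339, after quantile normalization. The ratio of C9 to C6 was 24.6 to 38.4 in WT and SunTag and 1.56 to 2.44 in the Myod1 experiment, and that of Hc to C6 was 23.1 to 58.4 and 2.38 to 4.17. For both ratios the 2 ranges were separate.

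Of the vitamin K dependent clotting proteins 0 of 6 were called in any comparison, against 0.127%, 0.254% and 24.3% of all genes. F2, prothrombin, was the most abundant of them, at 1114 and 1279 FPKM in WT, 1090.2 and 1188 in SunTag, 1336 and 1327 in Myod1_control and 1175 in Myod1_active. The controls were the 2 highest libraries by a small margin. Proc, protein C, which inactivates factors V and VIII, was at 332 and 355 FPKM in WT, 290.0 and 304 in SunTag, 368 and 341 in Myod1_control and 307 in Myod1_active. Its SunTag values were the lowest, though not by an amount that passed (difference from WT -0.22, SE 0.130, limma adjusted p = 1).

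F7, the protease that starts clotting with tissue factor, was at 100.1 and 102 FPKM in WT, 70.4 and 97.3 in SunTag, 69.5 and 61.2 in Myod1_control and 77.9 in Myod1_active. Both WT values lay above all 5 others. Pros1, protein S, the cofactor of protein C, was at 18.7 and 18.4 FPKM in WT, 25.2 and 20.3 in SunTag, 27.9 and 17.5 in Myod1_control and 27.2 in Myod1_active. It was the least abundant coagulation gene in every library but SunTag replicate 2 and Myod1_active, where F11 was lower. The groups of Pros1 overlapped except for SunTag over WT. F9 ran from 45.0 to 62.6 FPKM and F10, whose gene lies 1498 bp from F7, from 268 to 387, lower in the 3 libraries of the Myod1 experiment than in the other 4 (difference from SunTag -0.20, adjusted p = 0.134).

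Of the contact system and the other clotting factors, F5 and Kng1 passed in opposite directions. F5, the cofactor of factor Xa, was at 49.6 and 46.6 FPKM in WT, 36.7 and 50.3 in SunTag, 92.7 and 85.7 in Myod1_control and 86.6 in Myod1_active. The Myod1 experiment lay wholly above the other libraries, and F5 rose by 1.17 from SunTag to Myod1_control (SE 0.185, limma adjusted p = 0.0258), a mean ratio of 2.05. Kng1, kininogen, the source of bradykinin, was at 2377 and 2523 FPKM in WT, 2495 and 2427 in SunTag, 1489 and 1403 in Myod1_control and 1479 in Myod1_active. The Myod1 experiment lay wholly below the other libraries, and Kng1 fell by 0.63 on the log2 scale (SE 0.142, adjusted p = 0.0270). That call is uncertain. The deposited intervals of the 2 SunTag values, 1724 to 1774 and 1809.5 to 1869 FPKM, lay far below the values themselves, while those of the other 5 libraries held them. With the midpoints of the intervals in place of the values, an alternative chosen after seeing the data, the difference was -0.16 (SE 0.167, adjusted p = 0.229), and the other 5 called members passed again. The adjusted p was also above the threshold with no filter on low values (0.0616). Kng1 has a copy, Kng2, at 264 and 284 FPKM in SunTag and 186 and 167 in Myod1_control, and the 2 can share reads.

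Klkb1, plasma prekallikrein, was at 70.7 and 58.7 FPKM in WT, 59.7 and 62.6 in SunTag, 71.3 and 61.6 in Myod1_control and 50.8 in Myod1_active. F11, which activates factor IX, was at 30.8 and 24.4 in WT, 31.2 and 16.4 in SunTag, 33.9 and 25.8 in Myod1_control and 23.2 in Myod1_active. Both genes were lower in Myod1_active than in both controls, with differences of -0.63 and -0.59 that did not pass (limma adjusted p = 0.331 and 0.670). Klkb1 and Cyp4v3 overlap by 25189 bp. F13b, the carrier chain of factor XIII, was at 74.7 and 64.4 FPKM in WT, 87.7 and 72.3 in SunTag, 82.6 and 64.9 in Myod1_control and 71.2 in Myod1_active. Its groups overlapped in all 3 comparisons. F12, which starts the contact route, ran from 438 to 579 FPKM, highest in Myod1_active.

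Fibrinogen is assembled from 3 chains whose genes lie side by side on chromosome 3, with gaps of 11099 bp between Fgg and Fga and 8132 bp between Fga and Fgb. Their promoters are shown because the chains are needed together. The windows are the 250 bases before each start site in RefSeq on GRCm38, written on the strand of the gene: chr3:83025903-83026152 (plus) for Fga, chr3:83049864-83050113 (minus) for Fgb and chr3:83007474-83007723 (plus) for Fgg. Capitals mark matches, on either strand, to the STAT motif TTCNNNGAA, the C/EBP motif TTGCNNAA and the HNF1 motif GTTAAT.
Fga: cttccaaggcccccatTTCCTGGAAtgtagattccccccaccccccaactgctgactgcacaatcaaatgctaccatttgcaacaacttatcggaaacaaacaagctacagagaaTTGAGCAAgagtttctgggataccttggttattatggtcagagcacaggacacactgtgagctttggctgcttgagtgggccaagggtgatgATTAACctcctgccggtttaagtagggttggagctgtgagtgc
Fgb: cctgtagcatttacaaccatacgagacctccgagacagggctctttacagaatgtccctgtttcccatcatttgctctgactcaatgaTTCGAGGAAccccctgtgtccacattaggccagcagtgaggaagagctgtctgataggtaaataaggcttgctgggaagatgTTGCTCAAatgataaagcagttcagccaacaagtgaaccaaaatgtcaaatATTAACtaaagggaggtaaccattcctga
Fgg: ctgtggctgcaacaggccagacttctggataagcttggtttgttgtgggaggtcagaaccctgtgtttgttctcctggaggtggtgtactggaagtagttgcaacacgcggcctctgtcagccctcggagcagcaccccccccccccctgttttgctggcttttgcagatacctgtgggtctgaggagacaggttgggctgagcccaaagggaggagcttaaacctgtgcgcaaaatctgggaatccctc

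Fga and Fgb each held all 3 motifs in the same order, STAT, C/EBP and HNF1, with first bases at -234, -135 and -43 in Fga and at -162, -80 and -29 in Fgb, and Fgg held none of them in this window. Promoters of 28 of the 36 genes were searched. Of these, 8 held the HNF1 motif (28.6%, against 6.43% of 32851 windows of the same length), 9 the C/EBP motif (32.1%, against 9.56%) and 6 the STAT motif (21.4%, against 7.02%). The HNF4 motif CAAAGTNCA was in 1 (3.57%, against 1.19%), the FOXA motif TGTTTAC in 2 (7.14%, against 3.17%) and TATAAA in 3 (10.7%, against 12.4%). Matches are descriptions of letters and not sites of binding. C2, C4b, Cfb, Cfi, Masp1, Plg and Kng1 had no entry. Members on chromosome 18 were left out of the search, and Proc lies there.

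The fibrinogen chains were near-equal in abundance. In any comparison 0 of 3 passed, against 0.127%, 0.254% and 24.3% of all genes. Fga, the alpha chain, was at 2272 and 2507 FPKM in WT, 2043 and 1890.4 in SunTag, 2748 and 2268 in Myod1_control and 2874 in Myod1_active. Fgb, the beta chain, was at 2880.1 and 2695 in WT, 2892 and 2242 in SunTag, 2530.1 and 1955 in Myod1_control and 2394 in Myod1_active. Fgg, the gamma chain, was at 2466 and 2590.0 in WT, 2895 and 2068 in SunTag, 2675 and 2059 in Myod1_control and 2599 in Myod1_active. Fga was highest in Myod1_active and lowest in SunTag, while Fgb and Fgg overlapped between SunTag and both Myod1 groups.

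Between Myod1_active and Myod1_control the 3 chains differed by -0.05, -0.15 and -0.11 in the order Fga, Fgb, Fgg (limma adjusted p from 0.609 to 0.854). Within libraries the ratio of Fga to Fgb was 0.789 and 0.930 in WT, 0.707 and 0.843 in SunTag, 1.09 and 1.16 in Myod1_control and 1.20 in Myod1_active. Fga was thus the lesser of the 2 chains in all 4 WT and SunTag libraries and the greater in all 3 of the Myod1 experiment. Fgb over Fgg stayed between 0.921 and 1.17.

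**Figure D4:**
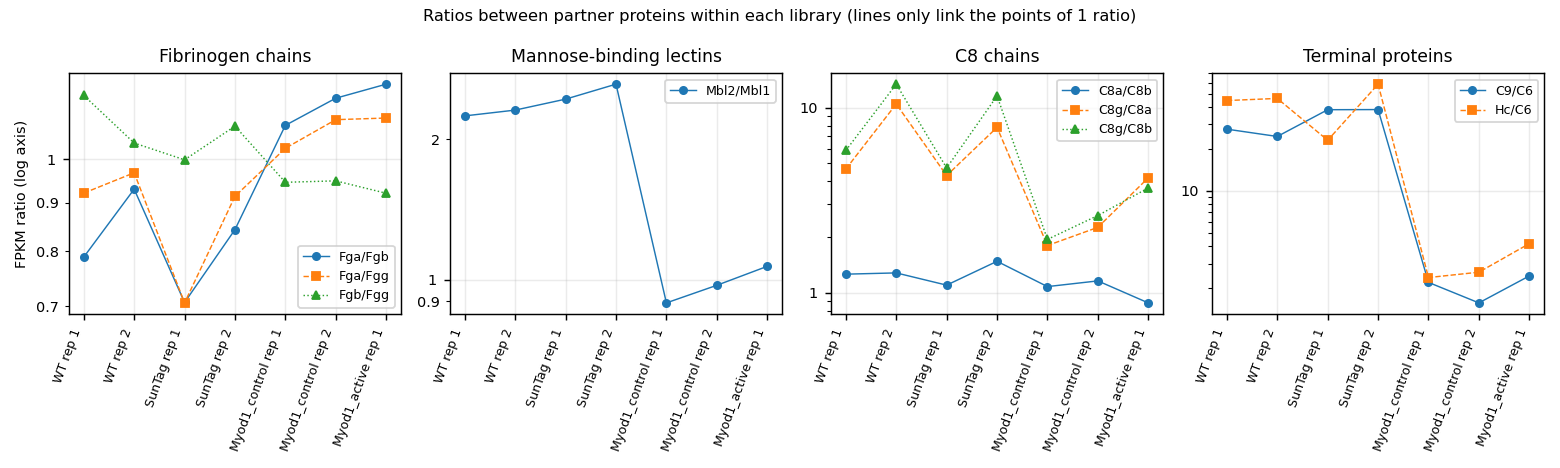
Ratios of FPKM (log axes, scaled separately in each panel) between partner proteins within each of the 7 libraries, with lines that only link the points of 1 ratio. Fga over Fgb is at most 0.930 in WT and SunTag and at least 1.09 in the Myod1 experiment, and Mbl2 over Mbl1 passes from at least 2.24 to at most 1.07.

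Of the fibrinolysis and related proteins 0 of 5 passed in any comparison, against 0.127%, 0.254% and 24.3% of all genes. Plg, plasminogen, the precursor of plasmin, was at 1009 and 1003 FPKM in WT, 777 and 945 in SunTag, 1122 and 1039 in Myod1_control and 785 in Myod1_active. The Myod1_active value was at 0.727 of the control mean (difference -0.71, SE 0.197, limma adjusted p = 0.281). SunTag replicate 1 was the lowest of the 7. Cpb2, a carboxypeptidase that slows fibrinolysis, was at 212 and 200.4 FPKM in WT, 291 and 196 in SunTag, 145 and 100.1 in Myod1_control and 163 in Myod1_active. All 3 libraries of the Myod1 experiment were below the other 4, with a difference of -0.85 from SunTag to Myod1_control (SE 0.274, adjusted p = 0.0585). That difference passed in 5 of the 19 alternatives, among them the replicate number as a block (adjusted p = 0.0436).

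Ahsg, fetuin A, an inhibitor of calcification, was the most abundant gene of the coagulation list, at 6898 and 7861 FPKM in WT, 7287 and 6476 in SunTag, 4565 and 3668 in Myod1_control and 5128 in Myod1_active. The 2 sets of libraries did not overlap, and the difference of -0.61 between Myod1_control and SunTag missed the threshold (SE 0.198, limma adjusted p = 0.0522). It passed in 7 of the 19 alternatives, with an adjusted p of 0.0255 at the lowest. On chromosome 16 Ahsg lies near Hrg, Kng1 and Masp1, in that order, with gaps of 51633, 96208 and 367348 bp. Their differences in that comparison were 0.17 for Hrg, -0.63 for Kng1 and 0.44 for Masp1. Hrg and Masp1 did not pass, and the means of Hrg were near-equal, 419 FPKM in SunTag and 414 in Myod1_control. These values do not tell whether the neighbours share a direction. Vtn, vitronectin, which binds PAI-1 and the terminal complement complex, was at 1961 and 2219.6 FPKM in WT, 1915 and 2094 in SunTag, 2451 and 2032 in Myod1_control and 2051 in Myod1_active. Its groups overlapped in all 3 comparisons. Hrg, histidine-rich glycoprotein, ran from 307 to 530.3 FPKM, both extremes in SunTag.

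Replicates of a group also differed. The 2 SunTag libraries differed by more than 1.5-fold for 8 members (22.2%, against 27.1% of all genes): Mbl1, Mbl2, C6, C8a, C8b, C9 and F11 were higher in replicate 1 and Hrg in replicate 2, with the widest ratio, 2.50, for C8b. In WT that held for 2 members, C8a and C8b (5.56%, against 12.5%), and in Myod1_control for 3, C8b, C9 and Pros1 (8.33%, against 21.5%). Control replicate 1 was above replicate 2 in 33 of the 36 genes, all 20 coagulation genes among them, and below it for C3, Cfb and Masp1. Over all genes that held for 7716 of 14784.

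Other genes of the same pathways were read between Myod1_control and SunTag from lists beside the members. Calls in these lists, and in the cell type markers further below, are given for the main fit alone. Whether they depend on the libraries in the fit, as the calls of members did, is not shown. Of 28 further complement genes tested, 2 rose and 10 fell (42.9% called, against 24.3% of all genes, with 7.30% higher and 17.0% lower). The 2 were C1rb and Clu, clusterin, an inhibitor of the terminal complex (1.04, adjusted p = 0.0422). Among those that fell were Cfp, properdin, which stabilises the alternative convertase, by 2.83 on the log2 scale (SE 0.239, limma adjusted p = 0.0135), the soluble lectins Colec11, Fcna and Colec10, the C1q chains C1qa, C1qb and C1qc, and Vsig4, Cd55 and Cd59a. Cfp was at 48.5 and 31.4 FPKM in SunTag and 4.32 and 3.98 in Myod1_control, with no overlap. C1qa, the A chain of C1q, was at 133 and 72.7 FPKM and at 13.7 and 14.7.

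Of 24 further clotting and fibrinolysis genes 1 rose, F2r, a thrombin receptor (1.28, limma adjusted p = 0.0334), and 7 fell. The 7 were Vwf, the von Willebrand factor of endothelium (-1.47), Fgl1 (-1.20), Fgl2 (-1.12), Adamts13, which cuts von Willebrand factor (-1.005), Fetub (-0.67), Thbd, thrombomodulin (-0.60), and Kng2 (-0.50). The 8 calls are 33.3% of the list, against 24.3% of all genes. In the vitamin K cycle, whose enzymes carboxylate clotting factors, Ggcx, the carboxylase, was at 17.3 and 25.04 FPKM in SunTag and 44.8 and 45.1 in Myod1_control and rose by 1.21 (adjusted p = 0.0270). Vkorc1, which recycles vitamin K, was at 423 and 354 and at 219 and 173 FPKM and fell by 0.85 on the log2 scale (adjusted p = 0.0274). The other 3 of the 5 genes did not pass, so that 40.0% of the list was called. The 2 enzymes thus differed in opposite directions while 0 of the 6 vitamin K dependent members passed.

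Among 12 hepatocyte transcription factors and genes of interleukin 6 signalling, 2 rose: Socs3, a feedback inhibitor of that pathway, at 2.26 and 2.19 FPKM in SunTag and 14.8 and 14.5 in Myod1_control (2.41, limma adjusted p = 0.0157), and Foxa2 (2.07, adjusted p = 0.0440), which is 16.7% of the list against 24.3% of all genes. Of 16 acute phase genes 1 rose, Itih3 (0.96, adjusted p = 0.0218), and 7 fell, Saa2, Lcn2, Orm3, Orm2, Fgl1, Orm1 and Itih4 (50.0% called, against 24.3%). Between Myod1_active and Myod1_control the only gene of these lists that passed was Orm2, an orosomucoid, at 814 FPKM against 74.4 and 49.9 (3.47, SE 0.314, adjusted p = 0.0344). Its relative Orm3 (2.98, adjusted p = 0.0850), Socs3 (-1.73, 0.158) and the receptor Il6ra (-1.49, 0.123) did not pass. The Orm2 call, 6.25% of the acute phase list against 0.254% of all genes, set 1 library against 2. In a fit of Myod1_active and Myod1_control alone Orm2 did not pass. Between SunTag and WT none of these lists held a gene that passed. Saa2 and Saa1, both acute phase apolipoproteins, differed by 0.93 and 0.72 there.

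Markers of several liver cell types moved with the comparison of Myod1_control and SunTag. In bulk tissue, fewer cells of a type and less RNA per cell cannot be told apart. Hepatocyte markers summed to 61603 to 63663 FPKM in SunTag and 42902 to 44930 in Myod1_control, with 1 of 7 called higher (Cps1) and 1 lower. Of all genes 17.0% were called lower. Sinusoidal endothelial markers were called lower for 8 of 9 (sums of 199.6 to 208 against 58.8 to 59.7), Kupffer and macrophage markers for 8 of 10 (375 to 605 against 71.6 to 81.8), stellate and fibroblast markers for 4 of 8 (74.3 to 129.8 against 20.4 to 30.6) and lymphocyte markers for 6 of 6 (9.35 to 15.9 against 0.774 to 1.20). The C1q chains and Vsig4 are themselves markers of Kupffer cells.

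The members themselves summed to 8895 and 8907 FPKM for complement in SunTag and 8904 and 9888 in Myod1_control, and to 23444 and 21597 against 21113 and 17701 for coagulation. These sums are weighted to the most abundant genes. From SunTag to Myod1_control the mean of Ahsg went from 6881 to 4116 FPKM and that of Kng1 from 2461 to 1446. The mean of C3 went from 4881 to 5609. Before the shift of the median gene was taken off, 10 of the 20 coagulation genes were higher and 10 lower. Red cell markers summed to 3920 to 6390 FPKM in SunTag and 40.1 to 45.9 in Myod1_control, with 4 of 6 called lower and 1, Alas2, higher. Hbb-b1 and Hbb-b2 were listed at 0 in control replicate 2. Cholangiocyte markers held 1 called higher (Sox9) and 1 lower of 5 (21.8 to 32.0 against 16.4 to 52.9), and platelet markers 0 of 3 (7.17 to 13.1 against 3.24 to 5.12). The part of these cell types in the 6 member calls was not tested. Between Myod1_active and Myod1_control no marker passed. All 9 endothelial markers were lower in Myod1_active, 8 of them below both controls (16.6% of all genes) and 4 at an unadjusted p under 0.05 (19.5% of all genes), with a median difference of -0.76, while 28 of the 36 members lay below the median gene. The part of any of these cell types in the members' values was not tested. The sums in Myod1_active were 39668 FPKM for hepatocyte, 40.1 for endothelial and 82.8 for Kupffer markers. Between SunTag and WT no marker passed either, and the red cell sum was 2337 to 2358 FPKM in WT.

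**Figure D5:**
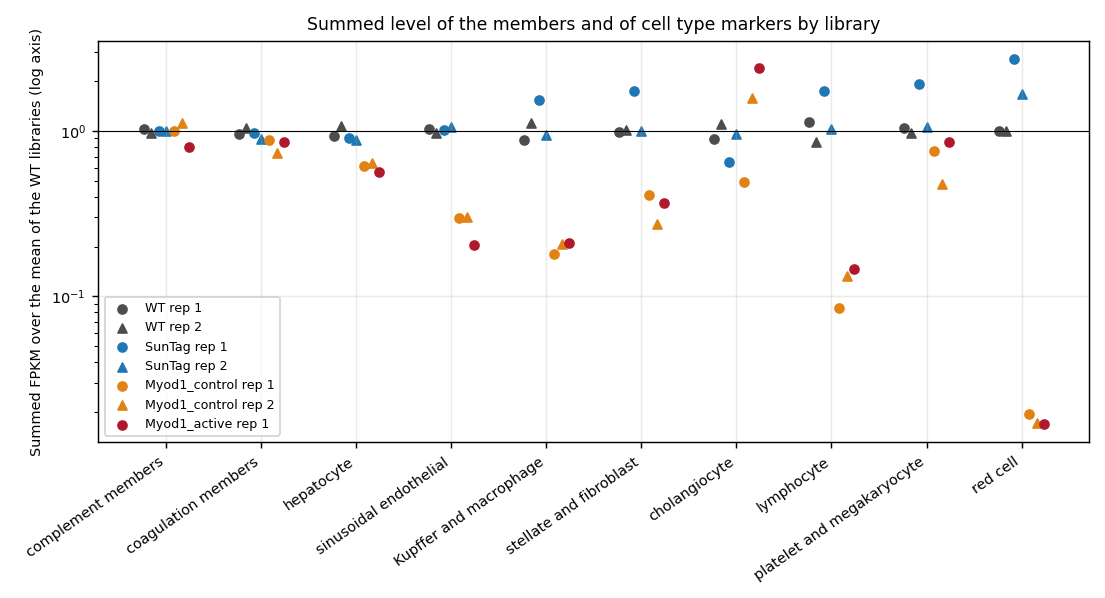
Summed FPKM of the complement and coagulation genes and of each list of cell type markers, divided by the mean of the 2 WT libraries (log axis), with 1 point per library. The sums are weighted to the most abundant genes, such as C3, Ahsg and Kng1. In the Myod1 experiment the red cell sums are 39.7 to 45.9 FPKM against 2337 to 6390 in the other 4 libraries, while the complement sums are 7144 to 9888 against 8613 to 9161 and the coagulation sums 17701 to 21113 against 21597 to 24982.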

How the data were processed

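Per the labels' protocols, liver RNA was isolated with a Direct-zol kit for Illumina sequencing. Reads were processed with cutadapt 1.11, TopHat2 2.1.1 and Cufflinks 2.2.1 against mm9, per the submitters' processing notes. Not given in the sources used here were their settings, the annotation and strand use. Per the file headers, the authors deposited FPKM values for each gene, and these were scaled no further in the main analysis. Rows whose status was other than OK in at least 1 library were dropped (343), and rows sharing a symbol were summed (244 symbols). Genes at an FPKM of 1 or more in at least 1 library (15744) were tested on log2(FPKM + 1), which understates the change of low genes, with limma 3.58.1 in R 4.3.3: 1 mean per group over 7 libraries, a variance trend, 3 residual and 1.93 prior degrees of freedom, two-sided tests and Benjamini-Hochberg adjustment over all genes, threshold 0.05. The median gene shifted by 0.01 (SunTag minus WT), 0.25 (Myod1_active minus Myod1_control) and -0.14 (Myod1_control minus SunTag).

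The labels do not tie replicates to separate animals, and p-values then measure only how far these libraries spread, which may be technical. Replicate numbers were not treated as pairs. Members and lists were chosen with earlier results of these data known. Values in every library are given for members past the threshold, for the 2 members of each role with the largest difference in a comparison, for the fibrinogen chains, for the highest and lowest member of each arm and for members at 0. Other pathway genes are named where they passed or were among the 2 largest differences of their list, and fewer were named than that rule allows. The code was tested on simulated data. Alternatives were other pseudocounts, filters, scalings, a constant prior variance, leaving out genes under 300 bp, a replicate block, each library left out, fits of 2 groups alone and, chosen after seeing the data, the midpoints of the deposited intervals in place of the values. Of 252 member values 147 lay outside their own deposited interval, so the intervals were not used as errors.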

Additional observations from a re-analysis of the deposited data

How the results depend on the processing

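Values without read counts give no counting error, and the single Myod1_active library had no replicate. Over all alternatives run, 0 complement and 0 coagulation members passed between SunTag and WT or between Myod1_active and Myod1_control, and none of the 6 calls between Myod1_control and SunTag changed sign. The causes of the changes below were not tested.

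Between SunTag and WT 20 genes passed, against 5 with genes spanning less than 300 bp left out, 5 with median-ratio scaling added to that, 31 in a fit of the 2 groups alone, 6 with interval midpoints and 23 to 79 when single libraries were left out. Between Myod1_active and Myod1_control 40 passed, against 23 with a pseudocount of 0.1, 63 with a pseudocount of 10, 253 with no filter, 20 with short genes left out, 8 with median-ratio scaling added to that, 0 in a fit of the 2 groups alone (limma, 2425 at an unadjusted p under 0.05), 9 with interval midpoints and 49 to 119 without single libraries. The coagulation median there was -0.0031 with quantile normalization. Between Myod1_control and SunTag 3832 passed, against 255 in the fit of 2 groups and 58 to 4070 without single libraries. Complement members called were 4, against 1 in the fit of 2 groups (C6) and 0 to 4 without single libraries. The set was larger in some settings. With quantile normalization Masp2, C4b and Hc passed as well and C8g did not. With short genes left out and median-ratio scaling, C4b and Hc passed beside the 4. C4b passed in 5 of the 19 alternatives (lowest adjusted p = 0.0300), Hc in 2 (0.0339), Masp2 in 1 (0.0310), Masp1 in 1 (0.0483) and C2 in 1 (0.0465). Coagulation members called were 2, against 1 with no filter (F5), 4 with quantile normalization (Proc, F5, Kng1 and Ahsg), 4 with short genes left out (F5, Kng1, Cpb2 and Ahsg), 0 in the fit of 2 groups and 0 to 3 without single libraries.

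Replicate numbers did not pair the libraries: the deviations of replicate 1 correlated at 0.0425 between WT and SunTag, 0.0341 between WT and Myod1_control and 0.000757 between SunTag and Myod1_control. With the replicate block 15 genes passed between SunTag and WT, 23 between Myod1_active and Myod1_control and 2928 between Myod1_control and SunTag, and C2 and Cpb2 passed beside the 6 members in the last.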
